A study of Homo sapiens with 6 samples.

Results

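The interleukin-1 (IL-1) family was followed through RNA-seq of MCF10A cells, a non-tumorigenic human mammary epithelial line, after knockdown of the paired box transcription factor PAX9. The family was represented by 10 members, taken by exact symbol from the 26822 gene symbols of the table, and each member was found in 1 row of the table that carried no other symbol. They are the ligands IL1A, IL1B, IL18, IL33 and IL36G, the antagonists IL1RN and IL36RN, and the receptor chains IL1R1, IL1R2 and IL1RAP. The 2 groups had 3 samples each, transfected with non-targeting siRNA (siNT) or with siRNAs against PAX9 (siPAX9) at 30 nM for 72 hours, in the same medium with horse serum, EGF, hydrocortisone, cholera toxin and insulin. All samples came from this single cell line, and nothing in the labels says whether they were separate cultures.

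The deposited table gives 1 pooled value per gene and group, in FPKM (fragments mapped, scaled by transcript length and by library size). It gives no spread between samples, so no test was run here. The p-values of the authors' own comparison, in the same table, were not used, and a difference between groups is described by its size only. The methods of the study give total reads only as a range over the samples, and the table holds no counts, so the number of reads behind each value is unknown. A gene was compared when its FPKM was above 0 in both groups and at least 1 in the higher group, which held for 13492 genes, and it was called when the groups differed at least 2-fold. The median log2 ratio of siPAX9 to siNT over these genes was -0.07. PAX9 itself was at 2.80 FPKM in siNT and 0.325 FPKM in siPAX9, which is 8.60-fold lower in the knockdown.

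IL-1 family cytokines are alarm signals of epithelia and immune cells. IL-1α and IL-1β bind the receptor chain IL1R1, which then recruits the shared chain IL1RAP, and the adaptor MYD88 passes the signal on to NF-kB and MAP kinases. IL1RN occupies IL1R1 without recruiting IL1RAP, IL1R2 is a decoy that binds the ligand without signalling, and IL36RN does for the IL-36 receptor what IL1RN does for IL1R1. IL-18 and IL-33 act through receptors of the same kind, and in skin and other stratified epithelia IL-1α and IL-1RN protein are stored inside the cell.

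The members with the largest differences between groups are shown first with the DNA before their starts. RefSeq promoters were on hand for 9 of the 10 members, with 18 starts in all, and the 250 bases before each start matched GRCh37, the assembly behind hg19, at 1 place on the member's chromosome. The sequences below are those of IL1RN at its upstream start and at one downstream, of IL36G, of IL1R2 at its first start and of IL1A at its first start, because IL1RN, IL36G and IL1R2 had the largest ratios and IL1A is the most abundant IL-1 ligand of the cluster that holds IL1RN and IL36G. Each runs 5′ to 3′ on the strand of the gene and ends at the base before the start. Capitals mark matches on either strand. The motifs searched were the AP-1 site with the letters TGANTCA, the core of a TATA box, which was searched for with the letters TATAAA, and the NF-kB consensus.
IL1RN start 1, chr2:113875298-113875547, plus strand: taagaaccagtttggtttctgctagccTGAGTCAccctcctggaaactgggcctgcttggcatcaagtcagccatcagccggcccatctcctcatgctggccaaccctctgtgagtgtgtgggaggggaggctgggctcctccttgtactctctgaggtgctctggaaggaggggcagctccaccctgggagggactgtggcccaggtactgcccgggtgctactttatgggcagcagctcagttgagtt
IL1RN start 3, chr2:113884925-113885174, plus strand: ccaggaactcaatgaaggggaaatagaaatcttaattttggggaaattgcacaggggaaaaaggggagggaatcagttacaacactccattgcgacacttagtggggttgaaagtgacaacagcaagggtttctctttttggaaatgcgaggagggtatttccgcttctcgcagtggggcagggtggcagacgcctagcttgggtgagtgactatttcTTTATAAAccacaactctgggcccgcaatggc
IL36G start 1, chr2:113735333-113735582, plus strand: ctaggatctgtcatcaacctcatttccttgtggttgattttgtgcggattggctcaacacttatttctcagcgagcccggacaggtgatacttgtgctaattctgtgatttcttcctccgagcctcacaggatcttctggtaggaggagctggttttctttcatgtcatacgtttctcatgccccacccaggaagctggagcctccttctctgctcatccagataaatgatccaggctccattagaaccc
IL1R2 start 1, chr2:102608172-102608421, plus strand: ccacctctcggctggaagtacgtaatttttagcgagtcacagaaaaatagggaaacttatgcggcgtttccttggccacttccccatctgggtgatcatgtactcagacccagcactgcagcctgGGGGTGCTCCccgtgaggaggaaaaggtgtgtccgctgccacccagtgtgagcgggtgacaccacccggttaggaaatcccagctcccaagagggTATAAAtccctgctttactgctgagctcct
IL1A start 1, chr2:113542071-113542320, minus strand: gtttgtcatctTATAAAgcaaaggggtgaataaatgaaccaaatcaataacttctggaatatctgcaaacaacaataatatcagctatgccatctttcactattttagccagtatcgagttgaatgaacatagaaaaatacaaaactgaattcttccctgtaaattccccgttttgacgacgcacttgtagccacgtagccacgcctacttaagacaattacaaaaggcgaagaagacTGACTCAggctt

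IL1RN makes an intracellular form from its upstream start and a secreted form from a start farther downstream, and these starts lie 78 and 9705 bases inside the locus of the table. The upstream window held an AP-1 match beginning 223 bases before the start, and the downstream window held overlapping TATA matches on both strands, the nearer beginning 30 bases before the start. The IL36G window held none of the 3 motifs. The first window of IL1R2 held a TATA match at 30 bases and the only NF-kB match of all 18 windows, at 125 bases before the start. The first window of IL1A held an AP-1 match at 12 bases and a TATA match at 239 bases. AP-1 matches were found in 3 of the 18 windows (of IL1A and IL1RN) and TATA matches in 4. Of all 35116 RefSeq promoter windows of the same length, 6.57% held an AP-1 match, 10.7% a TATA match and 9.96% an NF-kB match. Matches were counted at any position in the window and on either strand. The windows of IL1A overlap, and the match at 12 bases before its first start is the same site as one of those before its second start, so that site is counted in both. A match describes the letters of the window and was not tested for binding.

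Of the agonist ligands, IL18, IL1A and IL1B were abundant in both groups and IL36G reached FPKM 1 in siPAX9 only. IL1A (locus chr2:113531356-113542975, hg19, minus strand), the ligand that keratinocytes and other epithelial cells hold ready, was at 59.5 FPKM in siNT and 95.6 FPKM in siPAX9. This is a 1.61-fold higher value in siPAX9, short of the 2-fold threshold. IL1B (chr2:113587337-113594356, minus strand), which is made as a precursor and cut by caspase-1, was at 12.6 FPKM in siNT and 24.7 FPKM in siPAX9. Its 1.96-fold difference lay just under the threshold, and it passed (log2 ratio 1.05) when the ratios were centred on the median of genes with FPKM 1 or more in both groups, -0.08. IL18 (chr11:112013833-112034840, minus strand), another caspase-1 substrate, was at 73.2 FPKM in siNT and 89.7 FPKM in siPAX9, a 1.23-fold difference. As these are bulk samples, a difference in the share of cells that express a gene and a difference in RNA per cell cannot be told apart.

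IL36G (chr2:113735596-113743249, plus strand), an IL-36 cytokine of barrier epithelia, was at 0.0609 FPKM in siNT and 1.31 FPKM in siPAX9. The log2 ratio was 4.43, or 21.6-fold, and 1.13 with 1 added to each FPKM. The siPAX9 value stood only just above the limit of 1, so the gene was barely detected in siNT and low in siPAX9. IL33 (chr9:6215149-6257983, plus strand), a nuclear alarmin of barrier and endothelial cells, was near 0 in both groups, with FPKM of 0.0244 and 0.0313, and was not compared. Only IL33 and IL36RN of the 10 members had too few reads for the test of the authors.

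**Figure D1:**
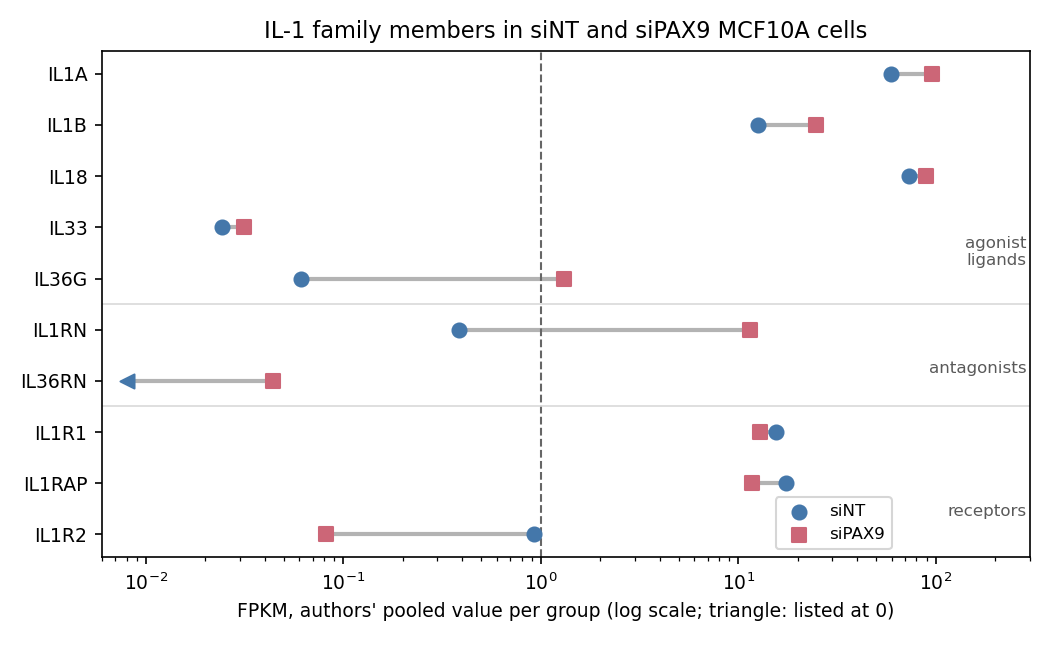
FPKM of the 10 members on a log axis, with a circle for siNT, a square for siPAX9 and a triangle for a gene listed at 0, each the authors' pooled value, and a dashed line at FPKM 1. IL1RN and IL36G cross the line from siNT to siPAX9, IL1R2 lies just under it in siNT, and the pairs of IL1A, IL1B, IL18, IL1R1 and IL1RAP lie close together above it.

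The antagonist IL1RN differed most. IL1RN (chr2:113875470-113891593, plus strand), the IL-1 receptor antagonist, was at 0.388 FPKM in siNT and 11.4 FPKM in siPAX9. It was 29.5-fold higher in siPAX9 (log2 ratio 4.88), and only 68 of the 13492 compared genes had a larger ratio. With 1 added to each FPKM the log2 ratio was 3.16. The locus covers the starts of both the intracellular and the secreted form, so the single value does not say which form was made. IL36RN (chr2:113816215-113822320, plus strand), the antagonist of the IL-36 receptor, was listed at 0 in siNT and at 0.0442 in siPAX9, so no fold was computed.

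Set against the agonists within the same group, which does not depend on scaling between groups, IL1RN stood far below IL-1 in siNT and nearer to it in siPAX9. For each unit of IL1RN there were 186 of IL1A and IL1B combined in siNT and 10.5 in siPAX9, per length of transcript. Against IL1B alone the excess was 32.5-fold in siNT and 2.16-fold in siPAX9. The ratio of IL1RN to IL1A plus IL1B was thus 17.7-fold higher in siPAX9, less than the ratio of IL1RN itself because the agonists were also higher there. IL1A stayed the more abundant of the IL-1 agonists, at 4.73 times IL1B in siNT and 3.87 times in siPAX9.

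The signalling receptor chains were somewhat lower in siPAX9 and the decoy was close to absent there. IL1R1 (chr2:102686836-102796334, plus strand), the chain that binds IL-1, was at 15.6 FPKM in siNT and 12.9 FPKM in siPAX9, a log2 ratio of -0.28. Exons of the antisense gene IL1R1-AS1 overlap those of IL1R1, and as the sources do not say that strand was used in counting, its reads may be included. IL1RAP (chr3:190231840-190374986, plus strand), the chain shared by the IL-1, IL-33 and IL-36 receptors, was at 17.5 FPKM in siNT and 11.8 FPKM in siPAX9, a log2 ratio of -0.58. Both differences stayed within 2-fold, and the ratio of IL1RAP to IL1R1 was 1.12 in siNT and 0.912 in siPAX9.

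IL1R2 (chr2:102608306-102644884, plus strand), the decoy, was at 0.921 FPKM in siNT and 0.0814 FPKM in siPAX9. The log2 ratio of -3.50 is the largest of the members in the lower direction, but the siNT value missed the limit of 1 and IL1R2 was therefore not compared. With 1 added to each FPKM it was -0.83. Within siNT there were 16.9 units of IL1R1 for each of IL1R2, and within siPAX9 there were 158. The pooled values of these inhibitors differed in opposite directions, with the antagonist IL1RN higher and the decoy receptor IL1R2 lower in siPAX9.

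Ordered by FPKM in siNT, the members ran IL18, IL1A, IL1RAP, IL1R1, IL1B, IL1R2, IL1RN, IL36G, IL33 and IL36RN. In siPAX9 the order was IL1A, IL18, IL1B, IL1R1, IL1RAP, IL1RN, IL36G, IL1R2, IL36RN and IL33. The exchange of IL18 and IL1A at the top is between close values, and without a spread no neighbours in either order can be said to differ. IL18 was above 95.8% of all gene symbols of the table in siNT and IL1A above 97.4% in siPAX9. IL1RN was above 47.2% of the symbols in siNT and above 76.2% in siPAX9.

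Of the 10 members, 7 were compared and 2 of these, IL1RN and IL36G, were at least 2-fold higher in siPAX9, against 7.26% of all compared genes. None of the 7 was at least 2-fold lower, against 6.89% of all compared genes, and 14.2% of all compared genes passed in either direction. IL1RN and IL36G reached FPKM 1 in siPAX9 only, so they entered the comparison through the group in which they were high, and their count cannot support a statement on the family. Among the 5 members with FPKM 1 or more in both groups, 0 passed, where 10.2% of all 12557 such genes did. Of the 7 compared members 5 had a ratio above 0 (IL1A, IL1B, IL18, IL1RN and IL36G) and 2 below it (IL1R1 and IL1RAP), while 45.1% of all compared genes had a ratio above 0.

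**Figure D2:**
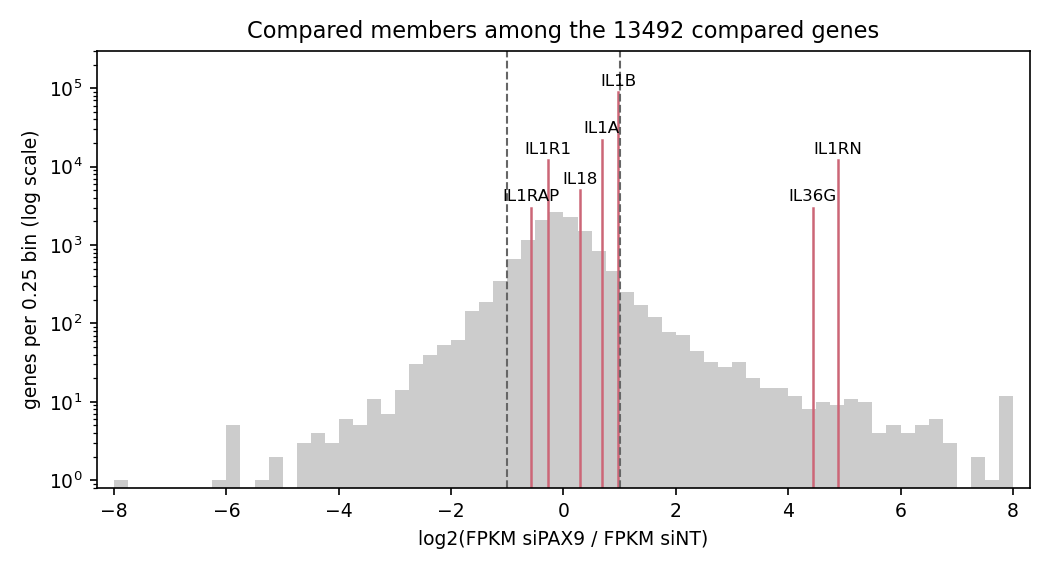
Log2 ratio of siPAX9 to siNT for the 7 compared members (labelled lines, whose heights have no meaning) over a histogram of all 13492 compared genes, with genes on a log axis, bins of 0.25, ratios beyond 8 in either direction placed in the end bins, and dashed lines at 2-fold. IL36G and IL1RN lie at 4.43 and 4.88 in the right tail, and the other 5 members lie between the dashed lines.

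On chromosome 2 the members lie in a pair of clusters with their relatives. The ligand cluster ran over 360 kb from IL1A to IL1RN and held 9 named genes of the family, of which only IL1A, IL1B, IL36G and IL1RN reached FPKM 1 in either group. Between these genes, IL37, an anti-inflammatory relative, was listed at 0.0707 in siNT and 0 in siPAX9. The IL-36 agonist IL36B was listed at 0 in siNT and 0.0198 in siPAX9, and IL36A, another IL-36 agonist, and IL1F10, which encodes IL-38, were at 0 in both. The genes that differed most, IL36G and IL1RN, were thus separated by loci that were at or near 0 in both groups.

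The receptor cluster ran over 461 kb from IL1R2 to IL18RAP. Of its genes only IL1R1 reached FPKM 1. IL1RL1, the IL-33 receptor, was at 0.728 FPKM in siNT and 0.745 FPKM in siPAX9, and IL18R1, the ligand-binding chain for IL-18, had 0.799 and 0.884. IL1RL2, the receptor for IL-36, had 0.00768 in siNT and was listed at 0 in siPAX9, and IL18RAP, the second chain of the IL-18 receptor, had 0.0242 and 0.0423. MIR4772, at the same locus as IL18RAP, was at 0 in both groups. IL1R2, at the edge of the cluster, was the only one of these genes above FPKM 0.1 in 1 group and below it in the other.

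**Figure D3:**
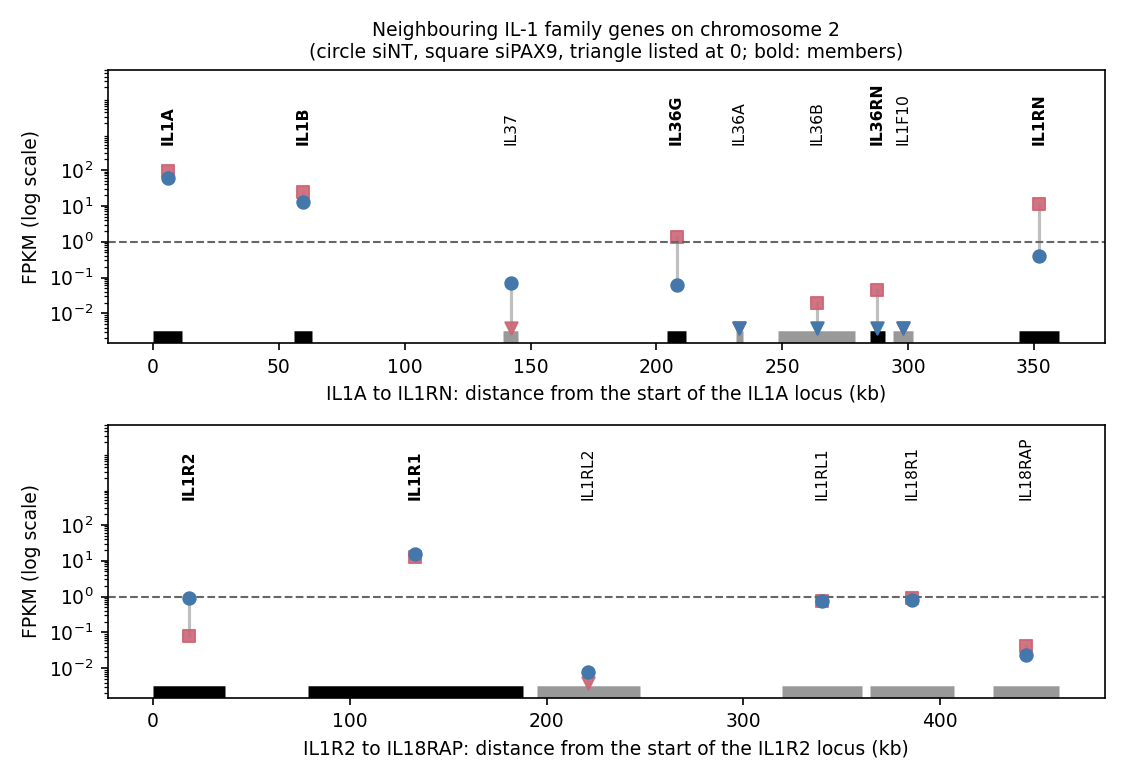
FPKM on a log axis (circle siNT, square siPAX9, triangle listed at 0) against distance in kb from the start of IL1A (top) or IL1R2 (bottom), with bars for the loci, black and bold for members. Among genes above 0 in both groups, the markers lie far apart for IL36G and IL1RN in the ligand cluster and for IL1R2 in the receptor cluster. A triangle only stands for 0, and its distance from the other marker has no meaning.

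Outside these clusters, IL18BP, a secreted protein that captures IL-18, was at 1.76 FPKM in siNT and 2.62 FPKM in siPAX9. SIGIRR, a receptor that dampens IL-1 family signalling, had 6.86 in siNT and 3.25 in siPAX9, 2.11-fold lower, and it fell just short of 2-fold after centring. IL1RAPL1 was at 0 in both groups and IL1RAPL2 was at 0 in siNT and 0.0140 in siPAX9. Of the 8 receptors and binding proteins outside the members, 6 were under FPKM 1 in both groups and were not compared. Of the other 2, SIGIRR was past 2-fold, beside 14.2% of all compared genes. With 2 genes compared, the count cannot support a statement on the list.

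Among the genes for activation and release of the cytokines, 17 of 27 were compared, and 4 were at least 2-fold higher and 3 at least 2-fold lower, 41.2% in all, beside 7.26%, 6.89% and 14.2% of all compared genes. Of these 7, CARD18, CTSS, MEFV and NLRP1 reached FPKM 1 in 1 group only, and so entered through the group in which they were high. The filter favours such calls, and the share cannot support a statement on the list. The median log2 ratio was 0.08, and -0.07 over all compared genes. The higher genes were CARD18, which encodes a caspase-1 inhibitor (0.667 in siNT and 2.90 in siPAX9), GSDMC, a gasdermin (2.23 and 7.25), NEK7, a partner of the NLRP3 inflammasome (19.0 and 43.4), and CTSS, the protease cathepsin S (0.429 and 1.03). The lower genes were MEFV, which encodes the inflammasome sensor pyrin (4.07 in siNT and 0.355 in siPAX9), GSDMD, the gasdermin that forms the pore for IL-1 release (11.8 and 4.20), and NLRP1, a sensor of epithelial inflammasomes (1.38 and 0.684). NLRP1 was within 2-fold after centring (log2 ratio -0.94). CASP1, the caspase that cuts the precursors of IL-1β and IL-18, was at 15.6 FPKM in siNT and 17.0 FPKM in siPAX9, and CARD18 is a near relative of it, so reads shared between them could have been split. NLRP3 (0.0260 and 0.780) and the adaptor gene PYCARD (listed at 0 and 0.0344) stayed under 1 in both groups.

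Of the 31 signal transduction genes 30 were compared, 0 were at least 2-fold higher and 1 was at least 2-fold lower, a share of 3.33% past 2-fold beside 14.2% of all compared genes, and the median log2 ratio was -0.12. The lower gene was MAP2K6, a kinase upstream of p38 (FPKM 1.88 in siNT and 0.323 in siPAX9). The adaptor MYD88 was at 13.1 FPKM in siNT and 22.4 FPKM in siPAX9, and the kinase IRAK4 5.14 and 5.00.

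Of the 18 negative regulators 17 were compared, with 3 at least 2-fold higher and 1 at least 2-fold lower, 23.5% in all beside 14.2% of all compared genes, and a median log2 ratio of 0.01. SOCS1 (FPKM 0.506 in siNT and 2.41 in siPAX9) and SOCS3 (21.0 and 3.32), both inhibitors of cytokine signalling, differed in opposite directions. CYLD, a deubiquitinase of the NF-kB pathway, was 2.06-fold higher (8.65 and 17.8). RNF31, also counted as higher, does not do what the name of the list says, since it is the catalytic subunit of the linear ubiquitin ligase, which promotes NF-kB signalling. It was 2.09-fold higher, but its locus also carries IRF9 and the value belongs to both.

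Of 38 genes that IL-1 is known to induce in epithelial cells 25 were compared, 4 were at least 2-fold higher, 2 at least 2-fold lower and 19 within 2-fold, with a median log2 ratio of 0.36. The share past 2-fold was 24.0%, beside 14.2% of all compared genes. The higher genes were PI3, the protease inhibitor elafin (FPKM 28.0 in siNT and 1414 in siPAX9), LCN2, an iron-capturing antimicrobial protein (3.73 and 144), S100A7, psoriasin (168 and 1666), and the complement gene C3 (399 and 955). The lower genes were IL6, the cytokine interleukin-6 (3.61 and 0.220), and the chemokine gene CXCL2 (79.5 and 39.0), which has near-identical relatives in CXCL1 and CXCL3. After centring CXCL2 was within 2-fold (log2 ratio -0.95), which leaves IL6 as the only lower gene. PTGS2, the cyclooxygenase COX-2 gene (0.560 in siNT and 1.11 in siPAX9), then passed as higher (1.06). It reached FPKM 1 in siPAX9 only, and just above the limit. The chemokine gene CXCL8 was at 39.5 FPKM in siNT and 56.5 FPKM in siPAX9, 1.43-fold higher. IL-1 protein, its release and its signalling were not measured, and whether the members' levels bear on these genes was not tested.

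**Figure D4:**
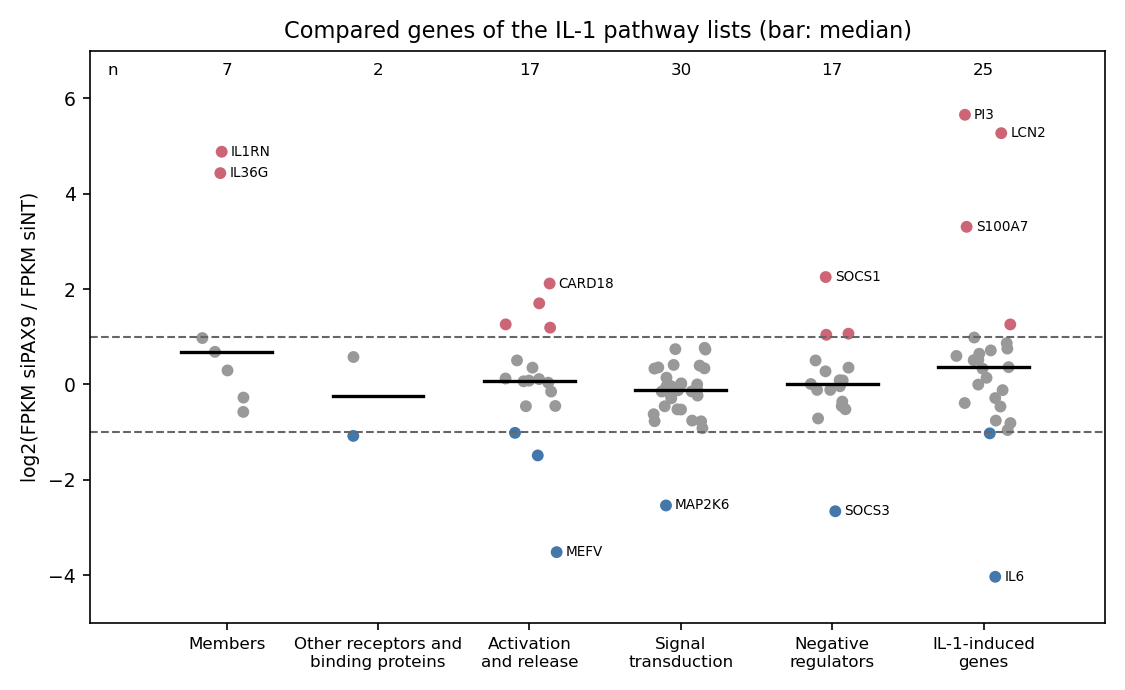
Log2 ratio of siPAX9 to siNT for each compared gene (point, red at least 2-fold higher, blue at least 2-fold lower) of the members and of 5 lists of the pathway, with n above, a bar at each median and dashed lines at 2-fold. The signal transduction genes cluster within the dashed lines apart from MAP2K6, and the widest ratios are PI3 and LCN2 above and IL6 below among the IL-1-induced genes.

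Over all 125 distinct genes of the pathway lists, 90 were compared, 11 were at least 2-fold higher and 8 at least 2-fold lower, 21.1% in all, beside the 14.2% of all compared genes given above. After centring 12 were higher and 5 lower. MAP2K6, SOCS1 and IL6, like the 4 genes of activation and release named above, entered these counts through the group in which they were high. PTGS2 did so in the counts after centring. The lists were written by hand and their median log2 ratio was 0.02.

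Because leukocytes are a rich source of IL-1, markers of other cell types were examined. All 12 markers listed for mammary basal epithelium were at FPKM of at least 16.7 in both groups, among them KRT5 and TP63. The list also holds general epithelial genes, such as CDH1 and EPCAM, which do not mark basal cells alone. Of the 12 genes 3 were past 2-fold, beside 14.2% of all compared genes. The cadherin gene CDH1 (45.3 in siNT and 124 in siPAX9) and the keratin gene KRT6A (368 and 959) were higher, and the epithelial adhesion gene EPCAM (34.3 and 16.7) was lower. Of 12 leukocyte markers 9 were under 1 in both groups, the pan-leukocyte gene PTPRC had 0.0166 in siNT and 0.0922 in siPAX9, and CD3E and CD3D were at 0 in both. Their summed FPKM was 18.8 in siNT and 65.9 in siPAX9, mostly CD14 (14.4 and 56.5). CSF1R was also higher (0.699 and 4.69), and CD68 was within 2-fold (3.38 and 3.77). Of 7 fibroblast markers 5 were under 1, and the summed FPKM was 6.40 in siNT and 42.2 in siPAX9, mostly DCN (5.85 and 37.9), with the collagen gene COL1A1 also higher (0.454 and 4.13). The 5 endothelial markers summed to 3.95 in siNT and 2.49 in siPAX9, with PECAM1 lower (2.58 and 0.495) and KDR higher (0.798 and 1.94). CSF1R, COL1A1 and KDR reached FPKM 1 in siPAX9 only and PECAM1 in siNT only. They thus entered the comparison through the group in which they were high. The part of the cell type markers in the members' values was not tested.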

How the data were processed

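Poly(A)+ RNA of 6 samples, 3 per group, was sequenced as single-end reads. The authors worked in Partek Flow, aligned the reads to hg19 with Bowtie2, quantified them with Cufflinks and deposited 1 pooled FPKM per locus and group. Normalization between libraries and the use of strand in counting are not given in the sources used here. The fold changes, p-values and q-values of the authors' own comparison are in the same table and were not used. The table holds no counts, so the precision of a value is unknown.

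Where a symbol occurred in several rows, the row with the highest mean FPKM was kept. The log2 ratio of siPAX9 to siNT was computed without a pseudocount. A gene was compared when FPKM was above 0 in both groups and at least 1 in the higher, and called at 2-fold. The 130 symbols at 0 in 1 group and at least 1 in the other were not compared. Loci are given on hg19 with 1-based starts, and all 10 overlapped their GENCODE gene on GRCh37. GSDME was found under its older symbol. Promoters came from RefSeq (GRCh38.p14) and were placed on GRCh37 by exact match. Members and lists were chosen with earlier results of these data known. Named were all members, their relatives, genes between cluster members, PAX9, and pathway genes past 2-fold (up to 5 per direction and list); CASP1, NLRP3, PYCARD, MYD88, IRAK4, CXCL8, PTGS2 and the cell type markers were added after their values were seen. One item is not reported here. Calling and motif search were checked on simulated data. Other pseudocounts, filters, thresholds, centring and row choices were tried. Python 3.11.15, numpy 2.4.6, pandas 2.3.3 and matplotlib 3.10.9 were used.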

Additional observations from a re-analysis of the deposited data

How the results depend on the processing

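Each group has 1 pooled value, so no library could be left out and the size of sampling error is unknown. No paired analysis was possible because the columns carry no replicate numbers. With FPKM 1 or more required in both groups, 0 members were at least 2-fold higher, and with the limit in the higher group raised to FPKM 5, 1 was (IL1RN), because fewer genes were compared. At 1.5-fold 4 members were higher (IL1A and IL1B joined). Centring added IL1B, for 3. Without a filter 1 member, IL1R2, was lower. IL1RN kept its direction and call wherever it was compared, and so did IL36G. Of the pathway genes, 20 were higher and 16 lower at 1.5-fold, 5 higher and 4 lower at 4-fold, and 4 lower under either stricter filter. After centring 12 were higher, as PTGS2 passed, and 5 lower, as SIGIRR, NLRP1 and CXCL2 were within 2-fold, against 11 and 8 without it. The share of all compared genes past the threshold was 9.02% with 1 added to each FPKM, 21.9% without a filter, 31.1% at 1.5-fold and 4.04% at 4-fold.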
